A study of Mus musculus with 4 samples.

Results

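The 10 genes described here encode plasma membrane carriers of leucine, glutamine, alanine and arginine. They were chosen by name among the 53465 genes of the count table, and each name matched 1 row. They were followed in splenic CD8+ T cells of mice after 24 h of activation with anti-CD3/CD28 beads, which stand in for antigen and costimulation. There were 4 RNA sequencing libraries, 2 labelled PP2Cm KO (PP2Cm-/-) and 2 labelled wild type (WT), titled as biological replicates. Ppm1k encodes PP2Cm, a phosphatase of mitochondria that switches on the complex committing branched-chain amino acids to breakdown. The tissue, cell type and stimulation are the same in both groups, and the sources used here do not give the strain, age or sex of the mice, the design of the deleted allele or any pooling of animals.

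The genotype labels contradict each other. The title and genotype field of each library name one genotype, whereas its description code starts with letters for the opposite one. The groups follow the title and genotype field and are called labelled KO and labelled WT, and every difference is labelled KO over labelled WT. All signs would turn if the codes named the genotype. Ppm1k itself had 157 and 206 counts in the libraries labelled KO, against 102 and 94 in those labelled WT. It was thus higher in both libraries labelled KO, by 0.97 on the log2 scale (SE 0.23, 95% limits 0.41 and 1.53, edgeR adjusted p = 0.186), which goes against the labels. The difference was 0.73 to 1.24 with each library left out in turn. The exons behind these reads are not known from gene counts.

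Depth was 13394074 and 14199020 counts in the labelled KO, and 12967251 and 17316284 in the labelled WT libraries. The defining CD8 T cell genes were present in all 4: 7 listed genes of the T cell receptor complex, CD8 and T cell signalling summed to 2832 and 2679 counts per 1000000 counts (CPM) in the labelled KO and 3279 and 3116 CPM in the labelled WT libraries. B cell markers summed to 298 and 264 CPM against 419 and 360 CPM, nearly all of it Ighm. Myeloid, dendritic cell, NK and gamma-delta T cell, and erythroid and platelet lists each summed to under 20 CPM per library, and 4 of 6 stromal and endothelial markers (Col3a1, Cdh5, Pdgfra and Kdr) were at 0 counts in all libraries. That list summed to 18.0 and 19.0 CPM in labelled KO, against 37.0 and 30.7 CPM in labelled WT, nearly all of it Pecam1. CD4 and regulatory T cell markers summed to 46.7 and 40.9 CPM against 39.0 and 38.2 CPM. The part of other cells in the differences below was not tested. In bulk RNA, fewer cells of a type and less RNA per cell cannot be told apart.

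T cells that leave quiescence import large amounts of amino acids for protein synthesis, nucleotide synthesis and mTORC1 signalling, and carriers of leucine and glutamine are known to be induced by activation. LAT1, the product of Slc7a5, exchanges intracellular glutamine for leucine and other large neutral amino acids, and reaches the surface only in a disulfide-linked pair with the heavy chain CD98, the product of Slc3a2. Sodium-coupled carriers such as SNAT1 and SNAT2 (products of Slc38a1 and Slc38a2) bring in glutamine and alanine, so the exchange carriers depend on them.

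Slc7a5 was the most abundant of the 10 transcripts per unit of length. Its level, as the deposited FPKM (fragments per kilobase of gene and per 1000000 fragments), was 134 and 110 in the libraries labelled KO, against 94.5 and 132 in those labelled WT. It lay above Slc38a2, the next gene, in all 4 libraries with no overlap of their ranges. Slc38a2, Slc38a1, Slc1a5 and Slc3a2 followed with mean FPKM over the 4 libraries of 57.0, 42.7, 39.4 and 39.1, and neighbours among them overlapped in range, so their order is not resolved, although Slc38a2 exceeded Slc38a1 in all 4 libraries. Slc7a1 came next at 26.3 and Slc7a6 at 13.2, each apart from its neighbours. Slc1a4 (2.72), Slc43a1 (1.93) and Slc43a2 (1.75) were the lowest, and the ranges of the last 2 overlapped. The 10 genes together took 0.236% and 0.208% of all counts in the labelled KO libraries, against 0.203% and 0.216% in the labelled WT libraries.

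**Figure D1:**
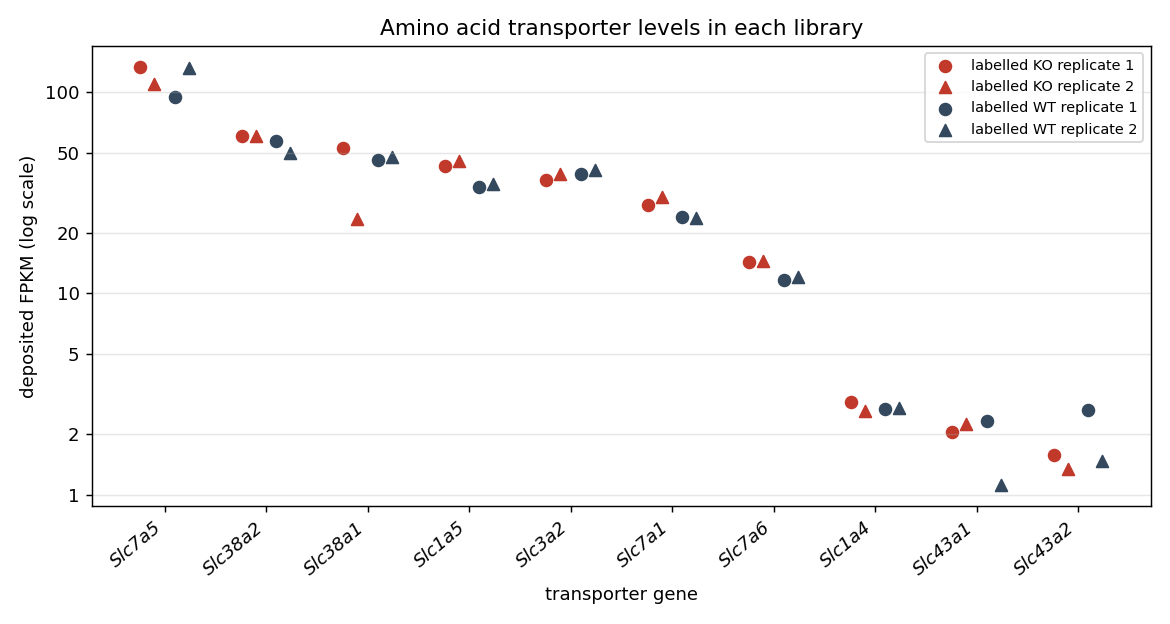
Deposited FPKM (vertical, log scale) of the 10 transporter genes in each library, ordered by mean level; red marks the 2 libraries labelled KO and dark blue the 2 labelled WT, with circles for replicate 1 and triangles for replicate 2. Slc7a5 lies on top at 94.5 to 134, and Slc38a1 is low in labelled KO replicate 2, at 23.5.

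The order of levels depends on the gene lengths behind the FPKM. The lengths implied by count and FPKM differ from the total exon length in GENCODE M21, being 6641 against 3529 bases for Slc3a2 and 8391 against 17236 for Slc38a1. For Slc38a2 they were 4626 against 8838, and its deposited position, alone among the carriers, differs from that in GENCODE. With the GENCODE lengths, an alternative chosen after seeing the data, Slc7a5 remained first at a mean of 137 counts per kilobase and per 1000000 counts. Slc3a2 came next at 73.6 and Slc1a5 followed at 65.1. Slc38a2 came after them at 29.8, and Slc38a1 stood below Slc7a6, at 20.8. Comparisons of 1 gene between libraries do not depend on its length.

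Promoter windows from RefSeq (GRCm38.p6, 250 bases before to 50 after a start) matched 7 of the 10 genes, with 10 windows in all; Slc7a5, Slc1a5 and Slc38a1 had none. They were searched for the E-box CACGTG, the same on both strands and known as the site of MYC and MAX, and on both strands for TGATGNAA, the core of the composite element of ATF4, which acts in the amino acid response. The motifs share no letters in any match. The E-box was present in 1 of the 7 genes, Slc43a1, and in 8.09% of all 27025 genes with a window. The ATF4 core was present in 1, Slc1a4, and in 4.51% of all genes with a window. By window, the shares were 7.15% and 3.97% of all 32851. The windows of these genes are printed with the match in capitals, beside the windows of Slc7a1 and Slc7a6, which hold no match and belong to the carriers with the lowest p values below. A match describes letters, not binding.
Slc1a4 (chr11:20332664-20332963, minus strand): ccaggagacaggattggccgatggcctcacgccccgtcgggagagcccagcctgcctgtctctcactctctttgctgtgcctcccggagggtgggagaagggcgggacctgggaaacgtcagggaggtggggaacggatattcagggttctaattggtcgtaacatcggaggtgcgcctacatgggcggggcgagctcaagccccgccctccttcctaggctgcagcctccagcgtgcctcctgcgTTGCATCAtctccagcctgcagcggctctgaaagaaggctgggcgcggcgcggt
Slc43a1 (chr2:84840073-84840372, plus strand): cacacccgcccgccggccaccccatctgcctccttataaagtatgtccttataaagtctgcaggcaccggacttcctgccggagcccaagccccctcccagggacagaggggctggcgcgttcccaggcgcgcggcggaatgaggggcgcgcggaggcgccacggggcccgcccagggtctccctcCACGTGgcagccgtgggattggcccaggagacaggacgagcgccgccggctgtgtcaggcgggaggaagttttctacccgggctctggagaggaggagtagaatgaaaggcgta
Slc7a1 (chr5:148399855-148400154, minus strand): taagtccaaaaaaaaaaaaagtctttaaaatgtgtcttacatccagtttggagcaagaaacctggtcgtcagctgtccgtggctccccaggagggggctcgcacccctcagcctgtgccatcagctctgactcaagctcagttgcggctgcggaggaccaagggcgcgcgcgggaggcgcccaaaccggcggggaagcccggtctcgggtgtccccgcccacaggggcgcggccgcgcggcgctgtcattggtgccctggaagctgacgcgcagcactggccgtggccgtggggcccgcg
Slc7a6 (chr8:106168604-106168903, plus strand): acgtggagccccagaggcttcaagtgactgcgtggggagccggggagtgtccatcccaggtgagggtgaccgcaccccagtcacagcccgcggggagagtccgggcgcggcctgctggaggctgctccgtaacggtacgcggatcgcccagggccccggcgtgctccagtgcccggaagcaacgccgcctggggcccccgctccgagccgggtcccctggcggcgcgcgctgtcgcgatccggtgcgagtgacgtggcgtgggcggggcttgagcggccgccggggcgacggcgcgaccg

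Whether any carrier differed between the labels was asked in a fit across all 13528 genes that passed a filter on low counts, which all 10 carriers passed. No carrier passed an adjusted p of 0.05 by edgeR, where 0.207% of all genes did, and none passed by DESeq2, where 1.88% did. At an unadjusted p under 0.05, 3 of 10 were higher in labelled KO by edgeR (Slc1a5, Slc7a6 and Slc7a1) and 0 lower, where 12.9% of all genes passed in either direction, 5.7% higher and 7.23% lower. By DESeq2, and in edgeR with the replicate number as a block, 1 of 10 was higher at an unadjusted p under 0.05. The number was also 1 in edgeR with no filter, and 2 with upper quartile scaling. It was 3 with RLE scaling, in both limma fits on log2 FPKM, and with replicate numbers crossed between labels as a block. That crossing was chosen after seeing the data. In all these settings 0 were lower. The groups did not overlap in 5 of 10, 4 with labelled KO above and 1 with it below. Over all genes 44.9% did not overlap, 21.5% above and 23.3% below, so the share of carriers is near the background. Over the 10 genes the median log2 fold change was 0.12, beside −0.01 over all genes tested, and 7 were positive, where 48.1% of all genes were. The median was 0.03 without labelled KO replicate 1, 0.05 without labelled WT replicate 2 and 0.20 without labelled KO replicate 2.

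**Figure D2:**
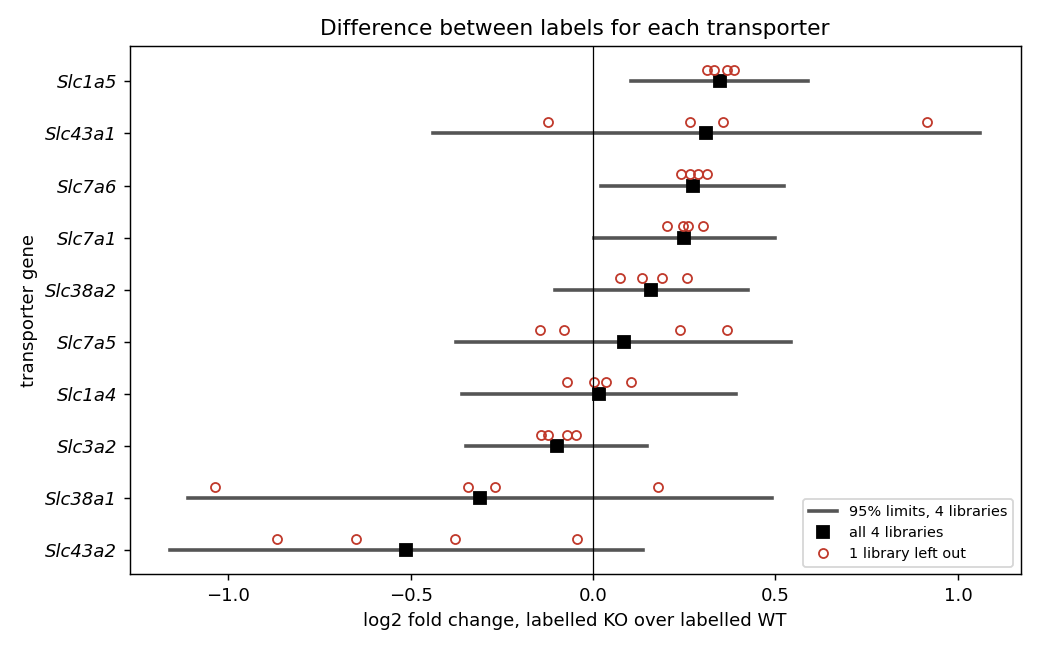
Log2 fold change of each carrier, labelled KO over labelled WT (horizontal), from edgeR on all 4 libraries (black squares) with 95% limits (grey lines) and with each library left out in turn (open red circles). Slc1a5, Slc7a6, Slc7a1 and Slc38a2 stay positive, and Slc3a2 and Slc43a2 stay negative, while Slc38a1 ranges from −1.04 to 0.18 and Slc43a1 from −0.12 to 0.91.

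No difference between labels was detected for either subunit of the leucine carrier. Slc7a5 (ENSMUSG00000040010, chromosome 8, 121881150 to 121907694, GRCm38) had 7707 and 6738 counts in the libraries labelled KO, against 5279 and 9874 in those labelled WT, and the groups overlapped. The log2 fold change was 0.08 (SE 0.19, edgeR adjusted p = 0.901), with 95% limits of −0.38 and 0.54, or folds of 0.770 and 1.46. The spread lay within the labels: on the TMM-scaled CPM, replicates differed 1.24-fold in labelled KO and 1.43-fold in labelled WT, where the median over 9233 genes with a mean of at least 10 CPM was 1.10-fold and 1.12-fold. Its sign turned when labelled KO replicate 1 (−0.08) or labelled WT replicate 1 (−0.15) was left out.

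Slc3a2 (ENSMUSG00000010095, chromosome 19, 8706882 to 8723369) varied least of the 5 most abundant carriers. Its FPKM was 36.8 and 39.2 in the libraries labelled KO, against 39.2 and 41.1 in those labelled WT, and its highest library stood 1.12-fold over its lowest. The log2 fold change was −0.10 (SE 0.10, edgeR adjusted p = 0.742), with 95% limits of −0.35 and 0.15. The FPKM ratio of Slc7a5 to Slc3a2 was 3.63 and 2.81 in labelled KO, against 2.41 and 3.22 in labelled WT, with overlapping groups. With GENCODE lengths its mean over the 4 libraries was 1.86 in place of 3.02, so the size of the ratio depends on the length used.

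Slc7a6 (ENSMUSG00000031904, chromosome 8, 106168857 to 106198706) encodes y+LAT2, another light chain of CD98, which exchanges cationic for neutral amino acids. It had 14.4 and 14.6 FPKM in the libraries labelled KO, against 11.6 and 12.0 FPKM in those labelled WT. Replicates lay close together, and the labelled KO pair lay above the labelled WT pair. The log2 fold change was 0.27 (SE 0.11, 95% limits 0.02 and 0.52), with an unadjusted p of 0.0376 and an edgeR adjusted p of 0.356. The FPKM of Slc7a5 exceeded that of Slc7a6 8.42-fold on average in labelled KO and 9.57-fold in labelled WT. In counts the ratio was 4.63 and 5.26 on average, so its size depends on the lengths used.

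The glutamine exchanger Slc1a5 gave the lowest p of the 10. Slc1a5 (ENSMUSG00000001918, chromosome 7, 16781340 to 16798274) encodes ASCT2, a sodium-dependent exchanger of glutamine, alanine, serine and other small neutral amino acids. It had 43.2 and 45.5 FPKM in the libraries labelled KO, against 33.8 and 34.9 FPKM in those labelled WT. The labelled KO pair lay above the labelled WT pair, by more than the gap between replicates of either label. This was 1.27-fold, or 0.35 on the log2 scale (SE 0.10, 95% limits 0.10 and 0.59), with an unadjusted p of 0.0121 and an edgeR adjusted p of 0.251. It kept its sign with each library left out, at 0.31 to 0.39, and its adjusted p ran from 0.165 to 0.771 over 12 alternatives.

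Slc1a4 (ENSMUSG00000020142, chromosome 11, 20302180 to 20332713), its relative in the same family, encodes ASCT1, an exchanger of alanine, serine and cysteine. It had 2.87 and 2.62 FPKM in labelled KO libraries, against 2.68 and 2.69 FPKM in labelled WT libraries. The groups overlapped, with a log2 fold change of 0.02 (SE 0.16, edgeR adjusted p = 0.979) and 95% limits of −0.36 and 0.39. Slc1a5 exceeded Slc1a4 15.0- and 17.4-fold in labelled KO, against 12.6- and 13.0-fold in labelled WT, as FPKM ratios. These ratios did not overlap, but a single value in 2 against 2 libraries cannot go below p = 0.333 in a two-sided exact permutation test.

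The 2 sodium-coupled carriers of the SLC38 family lie near each other on chromosome 15. Slc38a2 (ENSMUSG00000022462, 96687394 to 96699698) encodes SNAT2, a carrier of alanine, glutamine and other small neutral amino acids that is known to be induced by amino acid shortage. It had 60.8 and 60.2 FPKM in labelled KO, against 57.4 and 49.6 FPKM in labelled WT. The groups did not overlap, but the log2 fold change was 0.16 (SE 0.11, edgeR adjusted p = 0.601), with 95% limits of −0.10 and 0.42.

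Slc38a1 (ENSMUSG00000023169, 96571418 to 96642913) encodes SNAT1, a glutamine carrier. It had 53.0 and 23.5 FPKM in the libraries labelled KO, against 46.3 and 47.8 FPKM in those labelled WT. A single library, labelled KO replicate 2, was low, while labelled KO replicate 1 was the highest of all 4. The 2 libraries labelled KO differed 2.31-fold in CPM, and 99.3% of the 9233 genes differed less between them. The log2 fold change was −0.31 (SE 0.34, 95% limits −1.11 and 0.49, edgeR adjusted p = 0.755). Without labelled KO replicate 2 it was 0.18 (adjusted p = 0.93), and without labelled KO replicate 1 it was −1.04 and passed the threshold (adjusted p = 0.0436), and over 12 alternatives its adjusted p ran from 0.0436 to 1. The direction for this gene therefore depends on which library labelled KO is read. The ratio of Slc38a2 to Slc38a1 in FPKM was 1.15 and 2.56 in labelled KO, against 1.24 and 1.04 in labelled WT. In counts it was 0.632 and 1.41 against 0.685 and 0.572, so its size depends on the lengths used.

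Slc7a1 (ENSMUSG00000041313, chromosome 5, 148327410 to 148399904) encodes CAT1, the main carrier of arginine and other cationic amino acids in many cells. It had 27.3 and 30.1 FPKM in labelled KO, against 23.9 and 23.7 FPKM in labelled WT. The labelled KO pair lay above the labelled WT pair, 1.19-fold in the fit, with a log2 fold change of 0.25 (SE 0.10, 95% limits 0.0018 and 0.50). The unadjusted p was 0.0488 and the edgeR adjusted p 0.385. Among the carriers with a mean of at least 10 CPM, the pair with the most alike profile over the 4 libraries was Slc1a5 and Slc7a6, then Slc7a1 and Slc7a6, then Slc1a5 and Slc7a1, with root mean square distances of 0.04, 0.05 and 0.06 between centred log2 CPM. This is a description over 4 libraries.

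The facilitated carriers of large neutral amino acids were scarce and uneven between replicates. Slc43a1 (ENSMUSG00000027075, chromosome 2, 84838850 to 84863594) encodes LAT3. It had 243 and 282 counts in labelled KO, against 268 and 171 in labelled WT, or 2.05 and 2.24 against 2.33 and 1.11 FPKM. Labelled WT replicate 2 was low and the other 3 libraries were alike. Its TMM-scaled CPM of 10.1 in that library had a 95% counting interval of 8.61 to 11.7, below that of labelled WT replicate 1, 18.2 to 23.2. The log2 fold change was 0.31 (SE 0.32, 95% limits −0.44 and 1.06, edgeR adjusted p = 0.735), and −0.12 without that library. Without labelled WT replicate 1 it was 0.91 (adjusted p = 0.0581).

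Slc43a2 (ENSMUSG00000038178, chromosome 11, 75531694 to 75577575) encodes LAT4 and had the most negative log2 fold change of the 10. It had 1.57 and 1.34 FPKM in labelled KO, against 2.65 and 1.47 FPKM in labelled WT. Labelled WT replicate 1 stood apart from the other 3 libraries. The log2 fold change was −0.51 (SE 0.27, 95% limits −1.16 and 0.14, edgeR adjusted p = 0.491), and −0.04 without labelled WT replicate 1. Without labelled WT replicate 2 it was −0.87 (adjusted p = 0.0595). Slc43a2 shares 922 exon bases with Gm45606, an antisense gene on the opposite strand, which had 17 and 15 counts in labelled KO, against 56 and 82 in labelled WT (log2 fold change −1.98, edgeR adjusted p = 0.0824). Gm45606 was chosen after its values were seen. The library kit is stranded, but the sources used here do not say whether the counting was, so reads of the 2 genes cannot be told apart with certainty. The FPKM ratio of Slc43a2 to Slc43a1 was 0.766 and 0.596 in labelled KO, against 1.13 and 1.32 in labelled WT. In counts it was 1.57 and 1.22 against 2.32 and 2.70, so its size depends on the lengths used. Neither ratio overlapped between labels, but 2 against 2 libraries cannot go below p = 0.333 in a two-sided exact permutation test. No other carrier shares exon bases with another gene in GENCODE M21.

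Slc7a5 held the largest share of the carrier transcripts per length in each of the 4 libraries. It made up 35.6% and 33.4% of the summed FPKM in labelled KO, against 30.0% and 38.2% in labelled WT. Slc38a1 made up 14.1% and 7.14% in labelled KO, against 14.7% and 13.8% in labelled WT. Slc1a5 made up 11.5% and 13.8% in labelled KO, against 10.8% and 10.1% in labelled WT. On the deposited FPKM, each of Slc1a4, Slc43a1 and Slc43a2 stayed under 1% in every library. The size and order of these shares depend on the gene lengths behind the FPKM, so the 1% limit is given for the deposited lengths only. With the GENCODE lengths Slc7a5 remained the highest in each of the 4 libraries. Slc1a5 then lay above Slc38a1 in all 4, at 71.4 against 25.8 in labelled KO replicate 1, in counts per kilobase at equal depth.

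**Figure D3:**
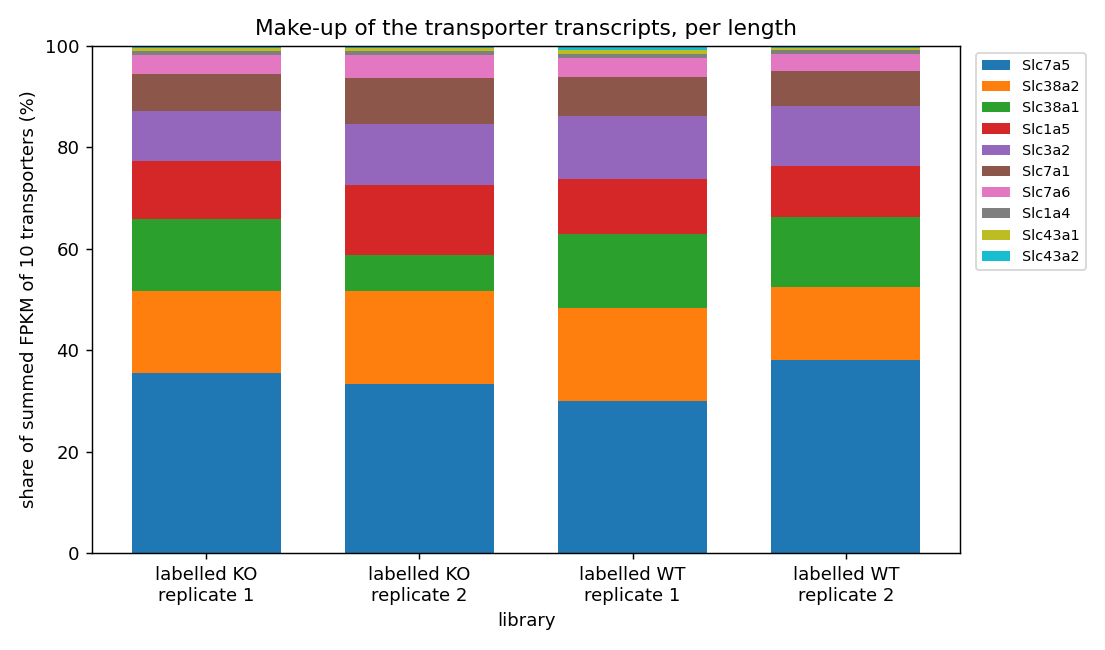
Share of the summed deposited FPKM of the 10 carriers (vertical, percent) held by each gene, in 1 bar per library. Slc7a5 holds 30.0% to 38.2%, and Slc38a1 narrows to 7.14% in labelled KO replicate 2. The size and order of the shares depend on the gene lengths behind the FPKM.

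As for Slc7a5, labelled KO replicate 1 and labelled WT replicate 2 were the higher libraries for other genes of amino acid use. Odc1, ornithine decarboxylase of polyamine synthesis, stood at 763 and 537 CPM in labelled KO, against 593 and 825 CPM in labelled WT. Shmt2, the mitochondrial serine hydroxymethyltransferase, stood at 891 and 664 CPM in labelled KO, against 755 and 929 CPM in labelled WT. In both, as in Slc7a5, the groups overlapped and the spread was between replicates. The 5 genes with the most alike profile among 9233 were Gng5, Ppp1r35, Tspan4, Gemin7 and Sssca1, with root mean square distances of 0.01 to 0.03 between centred log2 CPM over 4 libraries.

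Other amino acid carriers of the plasma membrane were mostly not detected well enough to test. Of 28 listed, 8 passed the filter, and 0 of them passed the adjusted threshold by edgeR, with 1 higher and 2 lower at an unadjusted p under 0.05. Over all genes tested, 0.207% passed the adjusted threshold, and 5.7% were higher and 7.23% lower at that unadjusted p. Slc16a10, a carrier of aromatic amino acids, had 39.9 ± 1.59 CPM in labelled KO, against 23.9 ± 2.78 CPM in labelled WT (SD, n = 2 each), with a log2 fold change of 0.74 (SE 0.16, edgeR adjusted p = 0.148). Slc6a19, a sodium-coupled carrier of neutral amino acids known from gut and kidney, had 4.44 and 4.29 CPM against 9.99 and 9.48 CPM in the same order of labels (−1.16, SE 0.21, adjusted p = 0.0974). In both genes the groups were apart by more than the replicates. For Slc7a3, a cationic carrier related to Slc7a1, the log2 difference was −0.72 (adjusted p = 0.385), and the taurine carrier Slc6a6, the only one of the 8 above 100 CPM, had 0.20 (adjusted p = 0.455).

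Carriers of lysosomes and mitochondria showed no called member either, 0 of 18 tested among 20 listed, with 1 higher and 1 lower at an unadjusted p under 0.05 by edgeR. The shares over all genes tested were 0.207% called, 5.7% higher and 7.23% lower. The median log2 fold change of these carriers was 0.10. Among the mitochondrial carriers, Slc25a22 (glutamate) had a log2 fold change of 0.42, Slc25a38 (glycine) 0.39 and Slc25a15 (ornithine) 0.32, with the labelled KO pair above the labelled WT pair, and edgeR adjusted p values of 0.379, 0.439 and 0.414. The serine carrier Sfxn1 had 0.09, at 232 and 229 CPM in labelled KO against 205 and 228 CPM in labelled WT, and its relative Sfxn3 had −0.43 (adjusted p = 0.374).

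Of the enzymes that use the carried amino acids, 1 of 16 tested was called, and it fell. Over all genes tested, 0.207% were called. Asns, asparagine synthetase, which makes asparagine from aspartate and glutamine, had 60.8 and 55.1 CPM in labelled KO, against 125 and 152 CPM in labelled WT. The groups were far apart, with a log2 fold change of −1.26 (SE 0.14, edgeR adjusted p = 0.0352). The call was lost without labelled KO replicate 2 (−1.18, adjusted p = 0.165) and in both fits on log2 FPKM. The sign was the same in 12 alternatives, with adjusted p from 5.37e-10 to 0.165. Bcat1, the cytosolic branched-chain aminotransferase, had 183 and 187 CPM against 145 and 200 CPM in the same order of labels, and the groups overlapped. Got1, Got2, Psat1, Oat, Odc1 and Shmt2, all above 100 CPM, overlapped between labels with log2 fold changes of −0.13 to 0.07, while Shmt1 had 0.30 (adjusted p = 0.396) and Nos2, at 1.79 and 2.97 CPM on average in labelled KO and labelled WT, had −0.73 (adjusted p = 0.42).

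Regulators of the carriers did not pass the threshold. Of 9 tested, 0 were called by edgeR and 1 was higher at an unadjusted p under 0.05. Over all genes tested, 0.207% were called and 5.7% were higher at that unadjusted p. Myc, a transcription factor known to raise carrier genes in activated T cells, had 283 and 285 CPM in labelled KO, against 231 and 202 CPM in labelled WT (log2 fold change 0.39, SE 0.11, unadjusted p 0.0106, edgeR adjusted p = 0.243). Atf4, the transcription factor of the amino acid response, had 466 and 434 CPM in labelled KO, against 407 and 411 CPM in labelled WT (0.14, adjusted p = 0.64). Its activity is known to be set largely by translation. Eif2ak4, the kinase GCN2 that senses uncharged tRNA, had 0.22 (adjusted p = 0.562). Nedd4l, a ubiquitin ligase of membrane transporters, had −0.28 (adjusted p = 0.525), and Ddit3, a transcription factor of the stress response, −0.39 (adjusted p = 0.473).

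**Figure D4:**
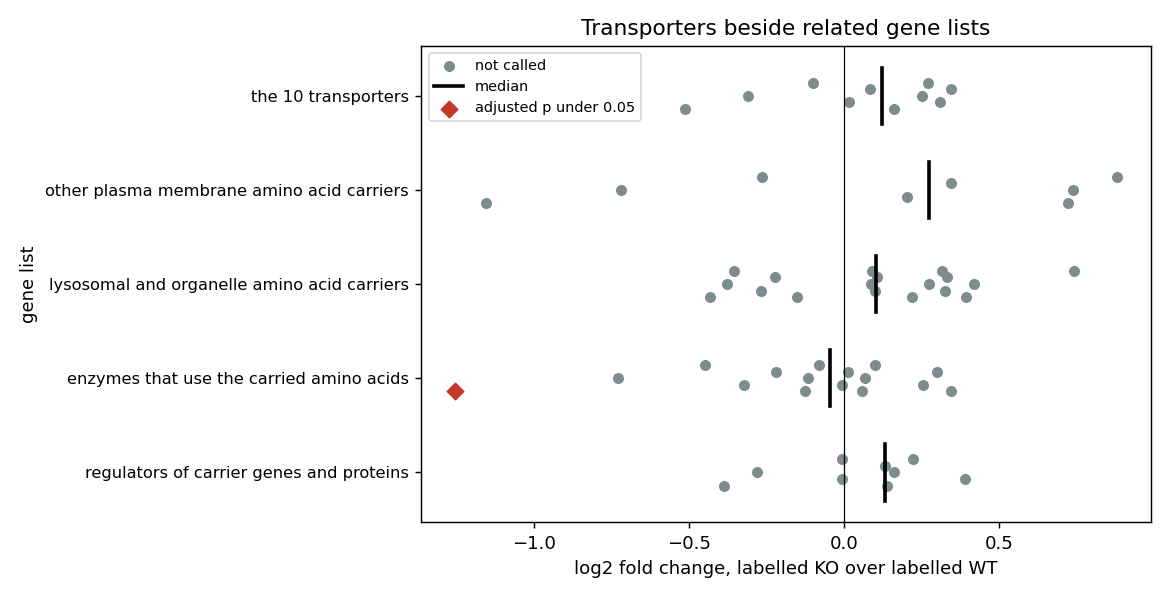
Log2 fold change, labelled KO over labelled WT (horizontal), of each tested gene in the 10 carriers and 4 related lists (rows), with black bars at the medians and a red diamond for the 1 gene with an adjusted p under 0.05. That gene is Asns at −1.26, and the 10 carriers lie between −0.51 and 0.35 with a median of 0.12.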

How the data were processed

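RNA sequencing counts per gene came from 4 libraries of activated CD8+ T cells, 2 per genotype label. Per the file headers, the authors deposited whole-number counts with no normalization, and FPKM. Dividing count by FPKM and library total returned 1 length per gene that varied by at most 0.00173% between libraries, over 10504 genes with at least 50 counts in each. Per the submitters' processing notes, kallisto and the build GRCm38 were named, with no role or version, while the making of whole counts, strand use and filters are not stated in these sources. The table's 8 other columns of values were not used.

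Columns were joined to samples by description code. Counts were filtered by filterByExpr, scaled by TMM and tested with edgeR 4.0.16 (quasi-likelihood F test, labelled KO minus labelled WT, two-sided, R 4.3.3), tested on simulated data first. Adjusted p values are Benjamini-Hochberg values over 13528 genes, with a threshold of 0.05. The biological coefficient of variation was 15.9%. Standard errors are the log2 fold change over the square root of F. Intervals of counts cover counting error alone. Nothing beyond the titles says that the libraries came from separate animals, so p values measure the spread between these libraries. Alternatives used DESeq2 1.42.0, limma 3.58.1 on log2(FPKM + 1) and log2(FPKM + 0.1), other scalings, no filter, a replicate block and each library left out. GENCODE M21 gave exon lengths and overlaps.

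The carriers and lists were chosen with earlier results of these data known. Named were all carriers, Ppm1k and, of each other list, called genes, the 4 tested with the lowest p, and those of at least 100 CPM. Some named items are not reported here.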

Additional observations from a re-analysis of the deposited data

How the results depend on the processing

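Of 120 values for the 10 carriers over 12 alternatives each, 114 kept their sign and their side of the threshold. The others came from leaving out 1 library. Slc7a5 then ranged from −0.15 to 0.37 on the log2 scale, Slc1a4 from −0.071 to 0.10, Slc38a1 from −1.04 to 0.18 and Slc43a1 from −0.12 to 0.91. The number of carriers called was 0 to 1 without each library in turn, the 1 being Slc38a1 without labelled KO replicate 1, and 0 in the other alternatives. Ppm1k ranged from 0.73 to 1.24 without each library in turn, passing without labelled WT replicate 1 (adjusted p = 0.0278), and was 0.59 on log2(FPKM + 1).

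The number of genes called, 28 by edgeR, was 253 by DESeq2, 146 with no filter, 5 on log2(FPKM + 1), 4 on log2(FPKM + 0.1), and 8 to 304 without each library in turn. Such fits take their spread from fewer libraries. The Slc7a5 to Slc3a2 ratio, 3.02 in FPKM, was 1.96 in counts and 1.86 with GENCODE lengths.

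The shared replicate numbers name no litter or batch, so they are not taken to pair the libraries. With the replicate number as a block 123 genes and no carrier were called, and 1 carrier had an unadjusted p under 0.05. Across genes the deviations of same-numbered libraries correlated at −0.165, and the crossed pairing, chosen after seeing the data, gave 12 calls. With that pairing as a block in edgeR 0 carriers were called, and 3 were higher at an unadjusted p under 0.05.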
